A study of Mus musculus with 22 samples.

Results

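Pericytes and the smooth muscle cells of arterioles are together called mural cells, because they lie on the outer wall of blood vessels. Pericytes share a basement membrane with the endothelium of capillaries, are recruited by PDGF-B acting on the receptor PDGFRB, and in the retina help to hold the blood-retina barrier; smooth muscle cells carry a contractile apparatus of smooth muscle actin and myosin and set the width of arterioles. In scRNA-Seq of the mouse retina, 124 of 26764 cells were taken as mural cells. A cell was a member if it held RNA of at least 3 of the 8 gate genes Rgs5, Kcnj8, Abcc9, Cspg4, Pdgfrb, Higd1b, Myl9 and Acta2, and none of the endothelial genes Cldn5 and Pecam1. The members held 0.577% of all UMIs (unique molecular identifiers, each standing for 1 captured RNA molecule).

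The single cells came from 6 libraries, 1 for each genotype (WT and AdipoR1-/-, here KO) at P19, P25 and P30, each from 4 pooled retinae; the KO mice came from the strain B6.129P2-Adipor1tm1Dgen/Mmnc, which carries the germline allele Adipor1tm1Dgen, so Adipor1 is disrupted in every cell type, and WT mice are C57BL/6J. The P30 libraries were sequenced apart from those at P19 and P25, and their cell barcodes differed in kind: 10 of them and none of the others began with AAACCT, and 26 barcodes of the other ages and none at P30 began with AAACCC, although the labels name a single chemistry. Age, sequencing run and barcode set therefore cannot be told apart, whereas each age holds both genotypes. One library stood apart in sex-linked genes. Xist, which is expressed from the inactive X of females, was detected in 3995 of 4089 cells without gate genes in WT P25 and in at most 4 in each of the other 5 libraries, and the Y-linked Ddx3y had 0 UMIs there and between 376 and 2139 in the others. At P25 genotype and sex cannot be told apart, and the sources used here give no sex for these libraries. The bulk RNA-Seq libraries were made at P30, from the retina and from detached RPE cells, with 4 libraries for each of WT and KO in either tissue. Nothing in the labels ties the bulk libraries to separate litters, so p-values measure the spread between these libraries.

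The members fell into the libraries unevenly, with 45, 7 and 4 cells in WT at P19, P25 and P30 and 44, 12 and 12 cells in KO. Their sums ranged from 6939 UMIs in WT P30 to 257026 in WT P19, so that values at P30 are the least precise. The 2 P30 libraries shared 15 cell barcodes, the most of any pair, and no member barcode was found in another library. Total counts of the bulk libraries were between 20133143 and 38409496. Intervals are exact at 95% and cover counting error only.

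All 5 markers that name the cell type were well represented, although the rule used them and they are therefore a description. Rgs5, a regulator of G-protein signalling and the most abundant pericyte marker, was detected in 119 of the 124 members, with 4862 UMIs or 8164 CPM (counts per 1000000 UMIs of the members; 95% interval 7936 to 8397). Pdgfrb was detected in 103 members, Higd1b in 102, Kcnj8, the pore of the vascular KATP channel, in 79, and Abcc9, its sulfonylurea receptor, in 68. Of the 3 further gate genes, Myl9, a smooth muscle myosin light chain, was found in 117 members, the proteoglycan gene Cspg4 in 67 and Acta2, smooth muscle actin, in 53. Of 18 endothelial genes, 4 were at 0 in the members, Cldn5, Pecam1, Cdh5 and Ptprb, the first 2 by the rule. At least 3 genes of this list were detected in 28 of the 124 members. Its summed level was between 615 and 1153 CPM in the WT and between 444 and 1338 CPM in the KO libraries of members. In the cells with none of the gate genes it was 469 CPM.

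Genes outside the rule also carried the mural pattern in the members with at least 4 gate genes. The members with 3 gate genes lay closer to the cells just outside the rule. The median member with at least 4 gate genes held RNA of 14 of the further pericyte genes of a fixed list, whereas the median member with 3 gate genes held 4 and the median cell just outside the rule, with 2, held 3. The 15 members with exactly 3 gate genes were deeper (median 8884 UMIs) than the 109 with 4 or more (3516 UMIs), and the 120 cells with 2 gate genes had a median of 7119 UMIs. In those 15 members Rgs5 stood at 433 CPM, against 10990 CPM in the members with 4 or more and 148 CPM in the cells with 2. Acta2 was detected in 6 of the 15, with 177 UMIs (1110 CPM), against 6301 CPM in the members with 4 or more gate genes.

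The members were not the only carriers of mural RNA. A further 132 cells held at least 3 gate genes together with Cldn5 or Pecam1, and these cells, with 71.4% of all Abcc9 UMIs and 60.0% of all Rgs5 UMIs, held more of both than the members did (23.8% and 29.6%). Acta2 and Tagln differed, since the members held 87.5% and 85.6% of their UMIs and the 132 cells 4.31% and 4.39%. These cells were absent or nearly so at P30, with 0 cells in KO (which allows a share of up to 0.106%, exact) and 1 in WT, against 26 to 43 cells in the other libraries. No doublet caller was run, and whether these are pairs of cells was not tested.

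The share of members among all cells was highest at P19 in both genotypes, and no difference between genotypes passed the test. In WT it was 0.827% at P19 (95% interval 0.604 to 1.11), 0.160% at P25 (0.0645 to 0.330) and 0.156% at P30 (0.0426 to 0.400). In KO it was 0.830% at P19 (0.604 to 1.11), 0.213% at P25 (0.110 to 0.372) and 0.346% at P30 (0.179 to 0.604). The KO library was above the WT library of its own age each time, with overlapping intervals, and the genotypes overlapped. With ages pooled, 56 of 12364 WT cells (0.453%) and 68 of 14400 KO cells (0.472%) were members. The mean over libraries was 0.381% ± 0.386 (SD, n = 3) in WT and 0.463% ± 0.325 (SD, n = 3) in KO, a KO minus WT difference of 0.0818 percentage points (exact permutation test, two-sided, p = 0.50, where 0.10 is the smallest that 3 against 3 libraries allow). The 3 libraries of a genotype differ in age, so the SD includes the spread between ages. The test did not pair libraries of the same age. A cell needs RNA of 3 genes to be counted, so the share moves with depth; after each cell was thinned to 1000 UMIs, which left out 1637 of the WT and 2369 of the KO cells, the difference was 0.0969 points (exact permutation p = 0.60). With the cells that hold Cldn5 or Pecam1 kept, it was -0.0156 points (exact permutation p = 1.0), and without WT P25 it was -0.0288 points.

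**Figure D1:**
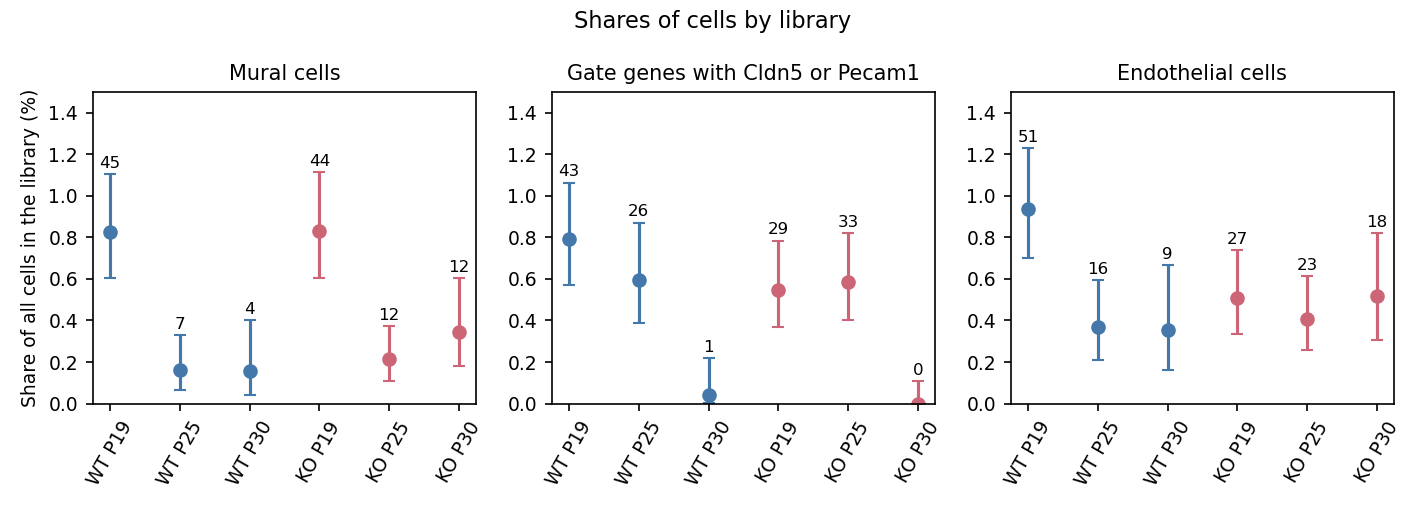
Share of all cells of a library (percent, vertical axis) in 3 groups of cells, for WT (blue) and KO (red) at each age. Points are shares, bars exact 95% intervals of counting error and the printed whole numbers count the cells; members stood near 0.83% at P19 in both genotypes and at or below 0.346% at P25 and P30.

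Acta2 RNA was found in part of the members, in both genotypes. It was detected in 53 members and not detected in 71, that is in 24 of 56 WT members (42.9%, 95% interval 29.7 to 56.8) and in 29 of 68 KO members (42.6%, 30.7 to 55.2). By library, members with Acta2 numbered 21 of 45, 1 of 7 and 2 of 4 in WT at P19, P25 and P30, and 20 of 44, 5 of 12 and 4 of 12 in KO. Most members with Acta2 came from the 2 libraries at P19, so the pooled shares mainly compare that pair. The counts at P25 and P30 are too small to compare the genotypes, and no test over cells was made.

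Contractile genes outside the rule followed Acta2. Tagln, the actin-binding protein transgelin, was detected in 49 of the 53 members with Acta2 and in 2 of the 71 without it, at 8975 CPM (95% interval 8651 to 9308) against 36.6 CPM (17.6 to 67.4). Smooth muscle myosin heavy chain, Myh11, was detected in 33 against 6 members, leiomodin 1 (Lmod1) in 33 against 1, Mustn1 in 40 against 3 and beta-tropomyosin (Tpm2) in 50 against 24. The calponin gene Cnn1 was found in 7 members with Acta2 and in none of those without. Rgs5 did not separate them, with 8178 CPM (7868 to 8496) in members with Acta2 and 8149 CPM (7814 to 8494) in those without. Members without Acta2 held contractile RNA too, with Myl9 in 65 of the 71 (1095 CPM) and Tpm2 and Crip1 in 24 each. The median depth was 4783 UMIs with Acta2 and 2846 UMIs without, so detection in the members without it was somewhat harder.

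The pericyte genes did not share a direction, and part of them went the other way. Vtn, vitronectin, which the rule did not use, was detected in 64 of 71 members without Acta2 and in 31 of 53 with it, at 5508 CPM (5233 to 5794) against 1771 CPM (1628 to 1922). Abcc9 stood at 1069 CPM in members without Acta2 and at 102 CPM in those with it, and Kcnj8 at 1304 and 214 CPM; both are gate genes, and a cell without Acta2 had to reach 3 gate genes with the other 7. P2ry14, a receptor for UDP sugars, stood at 425 CPM (351 to 510) without Acta2 and at 146 CPM (107 to 194) with it, and Art3 at 286 (226 to 357) and 115 (80.8 to 158) CPM. Ndufa4l2, Gja4 and Mgp lay close in both parts, with 1187 and 1017 CPM, 374 and 422 CPM, and 7782 and 7142 CPM without and with Acta2. Other genes of the further pericyte list pointed both ways. Cox4i2 and Cd248 stood higher without Acta2, at 670 and 355 CPM against 332 and 211 CPM. Des stood higher with Acta2, at 397 CPM (331 to 472) against 179 CPM (133 to 237). Notch3 and Ednra were also higher with it, at 493 and 236 CPM against 385 and 179 CPM, with overlapping intervals. All these values sum over cells of the same 6 libraries, and no test over cells was made.

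**Figure D2:**
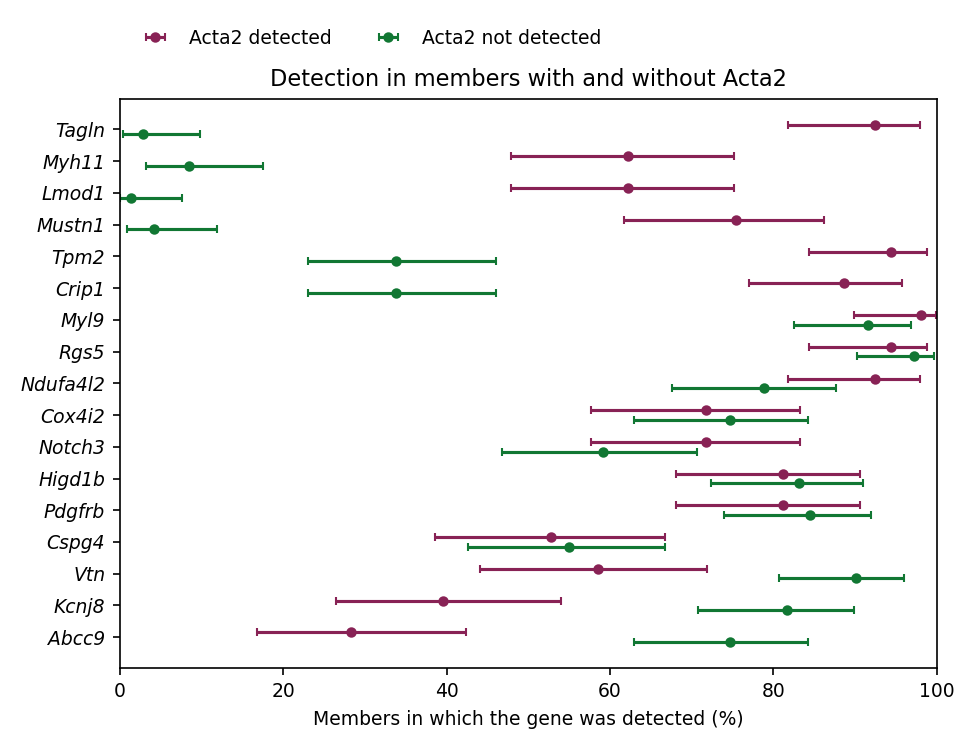
Percent of members in which each gene was detected (horizontal axis), for the 53 members with Acta2 RNA (purple) and the 71 without (green), with exact 95% intervals. Tagln, Myh11, Lmod1 and Mustn1 separated the parts (49, 33, 33 and 40 cells against 2, 6, 1 and 3), Rgs5 did not, and Vtn, Kcnj8 and Abcc9 were detected more often without Acta2.

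The serum response factor, which drives smooth muscle genes, binds a motif named the CArG box. To show where it lies in contractile genes of the members, promoters (250 bases before to 50 after the start, RefSeq, GRCm38.p6) were searched on both strands. It was found in 2 of the 24 gate and smooth muscle list genes that had a promoter in the table, against 1.81% of all 27025 promoters. The windows of 30 bases around both matches are given with the match in capitals, 40 bases before the start of Myl6 (chr10:128493040-128493069, minus strand) and 151 bases before that of Myl9 (chr2:156775293-156775322, plus strand). A match is a description of the letters and not of a bound site.
Myl6: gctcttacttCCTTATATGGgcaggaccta
Myl9: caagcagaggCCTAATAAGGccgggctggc

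Members were compared with the 25189 cells that held none of the gate genes, in the same libraries. Since the members were chosen for mural genes, genes that go with those had to differ, and these values are a description without a test. A gene also needed at least 40 UMIs in the members to be measured here, which favours genes that are high in them, so nothing is read from the counts. Of 2733 such genes, 488 (17.9%) were at least 2-fold higher in members. Of the 26 further pericyte genes 21 were measured and 20 were 2-fold higher, and of the 22 smooth muscle genes 13 were measured, with 11 higher and 2 lower. Of the 16 basement membrane genes 14 were measured and 13 were higher, and of the 10 Notch genes 7 and 6.

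The 10 genes with the highest ratio were of several kinds. Aspn, asporin, a small proteoglycan of the matrix, stood at 490, 1189 and 1729 CPM in WT members at P19, P25 and P30 and at 864, 718 and 621 CPM in KO members, against at most 0.317 CPM in the other cells of any library (log2 ratio 11.16 ± 0.80, SE). Tagln followed with 10.75 ± 0.79, higher in 6 of 6 libraries, and with pooled levels of 4876 CPM in members and 1.26 CPM in other cells. Mgp, matrix Gla protein, which restrains calcification of vessels, reached 7436 CPM in members and 9.46 CPM in other cells. Ifitm1, which is induced by interferon, Des (the muscle filament protein desmin), Casq2, the predicted gene Gm13861, Cd248 (endosialin, a membrane protein) and Myh11 had log2 ratios between 8.71 and 9.54. Slc38a11, a member of a family of amino acid transporters, had 67 UMIs in members and was listed at 0 in the other cells of all 6 libraries.

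The nearest vascular comparison was with 144 endothelial cells, chosen by at least 3 of 8 endothelial genes and fewer than 3 gate genes; here too both groups were chosen on markers and nothing was tested. Of 6350 genes, 551 (8.68%) were at least 2-fold higher and 935 (14.7%) at least 2-fold lower in members. Of the further pericyte genes measured 21 of 21 were higher, of the smooth muscle genes 12 of 16 and of the vasoactive genes 8 of 14. Vtn stood at 3484 CPM in members and 51.7 CPM in endothelial cells (log2 ratio 6.08 ± 0.49), and Ndufa4l2, a respiratory chain subunit of hypoxic cells, at 1095 and 9.56 CPM. Tpm2, at 1678 CPM in members, was listed at 0 in the endothelial cells of every library.

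Several vessel-wall genes were shared between both cell types. Type IV collagen, the network of the vascular basement membrane, was measured as Col4a1 at 2007 CPM in members and 896 CPM in endothelial cells (log2 ratio 1.72 ± 0.57) and as Col4a2 at 1016 and 704 CPM, and Sparc stood at 3380 and 4467 CPM. Of the 16 basement membrane genes 5 were at least 2-fold higher and 1 was lower in members. Notch3, the Notch receptor of mural cells, stood at 443 CPM in members and 1.91 CPM in endothelial cells. The TGF-beta list was mostly on the endothelial side, with 1 of 10 higher and 5 lower in members; Eng, the coreceptor endoglin, stood at 94.0 and 572 CPM. The endothelial genes Ctla2a, Ly6a, Ramp2 and Slco1a4 lay between 3.36 and 8.40 CPM in members and between 1802 and 2525 CPM in endothelial cells. Hbb-bs, beta-globin of red cells, was also lower in members (8.40 against 19575 CPM), and it was at 0 in the endothelial cells of KO P19 and KO P25.

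RNA of other retinal cells was measured in the members before the genotypes were compared. The summed level of 14 rod genes was between 1585 and 2882 CPM in the WT libraries and 1267, 14976 and 44565 CPM in KO at P19, P25 and P30. One cell held 89.0% of the rod UMIs in KO P25, and one held 47.9% of those in KO P30, while the median KO P30 member stood at 7982 CPM and the median WT P30 member at 2559 CPM. Müller glia genes (11 genes) ranged from 1009 to 9987 CPM in WT and from 1036 to 22855 CPM in KO. In 13 members the rod or the Müller genes took at least 2% of the UMIs, 5 of WT and 8 of KO. All 5 of WT and 3 of KO had exactly 3 gate genes, and the other 5 were KO P30 cells with at least 4 gate genes. In the endothelial cells of WT P30, 1 cell held 90.0% of the rod UMIs. Of 11 microglia genes 7 were at 0, of 6 RPE genes 4, and Cryaa, a lens crystallin, came from 1 cell with 1773 UMIs. Lists and single genes are therefore also given for the 111 members in which neither list reached 2%, that is 51 of 12364 WT cells (0.412%) and 60 of 14400 KO cells (0.417%). In these, too, 0 genes passed between genotypes in limma.

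**Figure D3:**
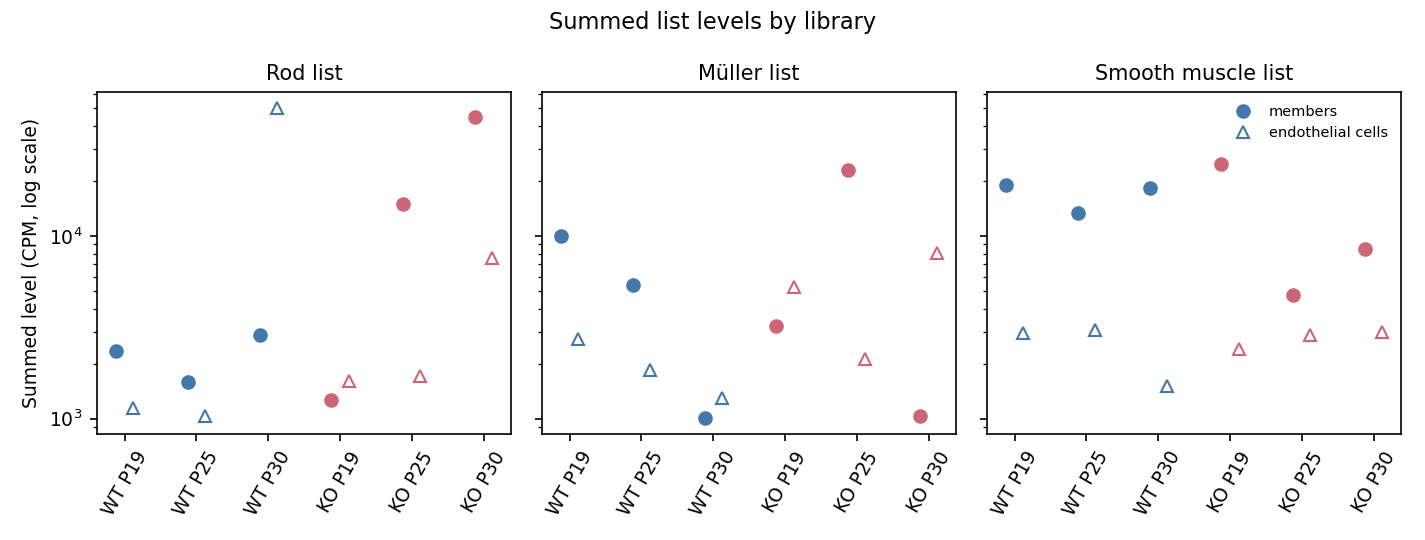
Summed level of the rod, Müller and smooth muscle lists (CPM, log scale) in each library for members (circles) and endothelial cells (triangles), WT in blue and KO in red. Members of KO P30 and KO P25 had the highest rod levels among members, 44565 and 14976 CPM, and the lowest smooth muscle levels, 8463 and 4731 CPM.

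Adipor1, the targeted gene, was lower in the KO members at every age. WT members held 24, 6 and 3 Adipor1 UMIs at P19, P25 and P30 (93.4, 183 and 432 CPM) and KO members 3, 2 and 2 (14.7, 32.6 and 59.2 CPM). The libraries did not overlap, which held, in the direction of lower in KO, for 3.1% of all genes tested, and in the direction of higher in KO for 2.99%. The fitted difference was -2.05 ± 0.68 (SE) on the log2 scale (limma, adjusted p = 0.901). In the 111 members Adipor1 had 32 UMIs, too few for the fit, with 100, 197 and 432 CPM in WT and 14.7, 0 and 0 CPM in KO. Reads of the 3' end that lie outside the disrupted part of the gene would not check the label, and the sources used here do not give their position. In WT members Adipor2 was counted 12 times in 5 cells (7 of them in 1 cell) and in KO members 5 times, all at P19, and Cdh13, which encodes the adiponectin-binding T-cadherin, 8 times, all in 1 WT P19 cell.

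No gene passed the test between KO and WT members across all genes. Of 2741 genes 0 (0%) passed an adjusted p below 0.05 in limma, with 1 library per genotype at each age, 2 residual degrees of freedom and a smallest adjusted p of 0.901, and 72 had an unadjusted p below 0.05. edgeR on the same counts called 9, of which Cryaa, Crybb2 and Pmel came from 1 cell each and Xist from WT P25 alone (41 UMIs in its 7 members, 0 in all others). Without either P19 library more genes passed (53 without WT P19 and 52 without KO P19, 51 of them shared), with 11 and 12 of the 14 rod genes among them. Without WT P25, 2 genes passed, Cryab and the rod gene Sag, and without KO P25 Cryab alone. The following values are therefore directions without a call.

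Pericyte genes varied without a common direction. The further pericyte list had 8 of 21 genes above 0 (KO over WT) with a median of -0.19 on the log2 scale, against 1598 of 2741 genes and 0.14 for all genes tested; in the 111 members it had 11 of 21 and 0.25, against 0.06 for all genes. Rgs5 stood at 6599, 9602 and 11817 CPM in WT at P19, P25 and P30 and at 10959.9, 5367 and 6155 CPM in KO, so that the KO library was higher at P19 and lower later; in the 111 members it was 8360, 10330 and 11817 CPM against 10959.9, 13451 and 9432 CPM, higher in KO at P19 and P25. Kcnj8 stood at 482, 1219 and 1009 CPM in WT and at 884, 767 and 799 CPM in KO (log2 difference -0.04 ± 0.37, and 0.58 in the 111 members). Pdgfrb stood at 459, 1128 and 288 CPM in WT and 830, 799 and 385 CPM in KO (0.25 ± 0.37, and 0.78 in the 111). The genotypes overlapped for all 3 genes. Gucy1b1, a subunit of the nitric oxide receptor guanylate cyclase, had the largest shortfall of the vasoactive genes with most UMIs, with 381, 732 and 1153 CPM in WT and 481, 261 and 88.8 CPM in KO (-1.51 ± 0.64, adjusted p = 0.901 in limma, and -1.30 in the 111).

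Contractile genes stood lower in KO members at P25 and P30, without a call, and the difference shrank without the cells rich in rod or Müller RNA. The WT values at these ages rest on few cells. A single member held 64.8% of the smooth muscle list UMIs in WT P25 and 54.3% in WT P30, against 34.5% in KO P25 and 31.5% in KO P30. Of 13 smooth muscle genes 0 were above 0, with a median of -0.70; in the 111 members 3 of 13 were, with a median of -0.22. Tagln stood at 5011, 3140 and 2162 CPM in WT and at 7135, 392 and 621 CPM in KO, which is higher in KO at P19 and lower at the other ages; the fitted difference was -1.40, and -1.20 in the 111. Tpm2 stood at 1938, 762 and 2306 CPM in WT and 2038, 228 and 917 CPM in KO (-0.96 ± 0.38, adjusted p = 0.901 in limma, and -0.54 in the 111). Within members with Acta2 the summed smooth muscle list was at 31775, 29599 and 27014 CPM in WT and at 36494, 8688 and 14456 CPM in KO; the WT P25 value is from 1 cell. Without the rod-rich and Müller-rich cells, the KO values at P25 and P30 were 14356 CPM in 4 cells and 26081 CPM in 2 cells.

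Immediate-early and inflammatory genes lay mostly above 0. Of 16 immediate-early genes, which are also induced when tissue is dissociated, 14 were above 0 (median 0.87), and in the 111 members also 14 of 16 (median 0.93). Junb stood at 1401, 884 and 144 CPM in WT and 3963, 1876 and 799 CPM in KO (1.63 ± 0.34, and 2.13 in the 111), and Fos at 2408, 1920 and 288 CPM in WT and 5490, 2708 and 562 CPM in KO (0.87 ± 0.29, and 1.22 in the 111). KO was higher at each of the 3 ages for both, and the genotypes overlapped between ages. The order at P30 is uncertain, since WT P30 held 6939 UMIs in 4 members and Junb had 1 UMI there. Summed over the list, P30 members stood higher in KO (2486 CPM, WT 1153 CPM), but 1 cell held 42.9% of the KO UMIs. The median P30 member was lower in KO (1115 CPM, WT 1272 CPM). Outside the members the summed list was 13743, 13863 and 1771 CPM in WT and 31744, 18551 and 5920 CPM in KO endothelial cells at P19, P25 and P30, higher in KO at each age. In KO P30, 1 endothelial cell held 62.1% of the UMIs of the list. The median endothelial cell at P30 differed little (WT 2942 CPM, KO 3198 CPM), so the P30 sums rest largely on single cells. In the other cells the summed list was 3252, 3150 and 811 CPM against 6741, 4685 and 782 CPM. It was higher in KO at P19 and P25 but not at P30. Whether handling of the libraries had a part was not tested.

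Of 13 inflammatory genes 11 were above 0 (median 1.01), and 10 of 11 in the 111 members (median 1.42). Of the 13, 2 had all KO libraries above all WT libraries and none the reverse, where 2.99% and 3.1% of all genes tested did so. Ifitm3, an interferon-induced membrane protein, stood at 953, 1280 and 1153 CPM in WT and 2126, 2675 and 1450 CPM in KO (0.84 ± 0.30, and 1.49 in the 111). The summed list was 2362, 3505 and 3026 CPM in WT members and 5362, 8777 and 3877 CPM in KO members, with KO higher at each age and no overlap; in the 111 it was 2281, 3257 and 3026 CPM against 5362, 9955 and 6681 CPM. In endothelial cells it was 5681, 5878 and 3543 CPM in WT and 7144, 10643 and 12542 CPM in KO, and in the other cells 331, 265 and 288 CPM against 673, 1346 and 933 CPM. By these sums all 3 groups of cells were thus higher in KO at each age. Median cells lay closer together at P30. For members the P30 medians were 3793 CPM (KO) and 3430 CPM (WT), and 1 of the 4 WT members held 42.9% of their UMIs of the list. For endothelial cells the P30 medians were 11818 CPM (KO) and 7600 CPM (WT), and 1 KO cell held 37.3%. The size of the P30 differences in these 2 groups is therefore uncertain.

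STAT3 acts downstream of cytokine receptors of the IL-6 type on promoters that hold the motif TTCCNGGAA. It was found on either strand in 2 of the 20 inflammatory list genes with a promoter in the table, against 1.35% of all 27025 promoters. The windows are shown because these genes were measured in both assays, with the match in capitals, 127 bases before the start of Bst2 (chr8:71537589-71537618, minus strand) and 33 bases before that of Icam1 (chr9:21015888-21015917, plus strand; GRCm38.p6). In members Bst2, tetherin, was counted 26 times in WT and 82 times in KO, 33 of them in 1 cell, and Icam1, an adhesion molecule for leukocytes, once in WT and 3 times in KO.
Bst2: tctaggggcaTTCCAGGAAaatgaaactga
Icam1: ggcgcgaggtTTCCCGGAAagtggccccga

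Of the genes with the smallest p, those higher in KO were Junb, Cebpd, Ptgds, Gngt1, Gadd45b, Cebpb, Rbp3, Mt1, Fosb and Adamts1, none of which passed (adjusted p = 0.901 in limma). Cebpd, a transcription factor of the acute phase, stood at 319, 396 and 144 CPM in WT and 697, 1811 and 503 CPM in KO (1.63 ± 0.37, and 1.44 in the 111), with no overlap. Gngt1 and Rbp3 are rod genes, and Gngt1 had a difference of 2.38 ± 0.68 that was -0.06 in the 111 members. Gngt1 is in the rod list by which cells were left out of the 111, so this change follows in part from that choice. Those lower in KO included Pcp2, Dbp, Adipor1, Etfb, C1qtnf7, Ttc3, Ccdc80 and Tpm2, of which none passed either. Dbp, a transcription factor with a daily rhythm, stood at 265, 457 and 1009 CPM in WT and 118, 245 and 207 CPM in KO (-1.35 ± 0.44, and -1.12 in the 111). Pcp2 is a bipolar cell gene and was counted 91 times in WT and 8 times in KO members.

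**Figure D4:**
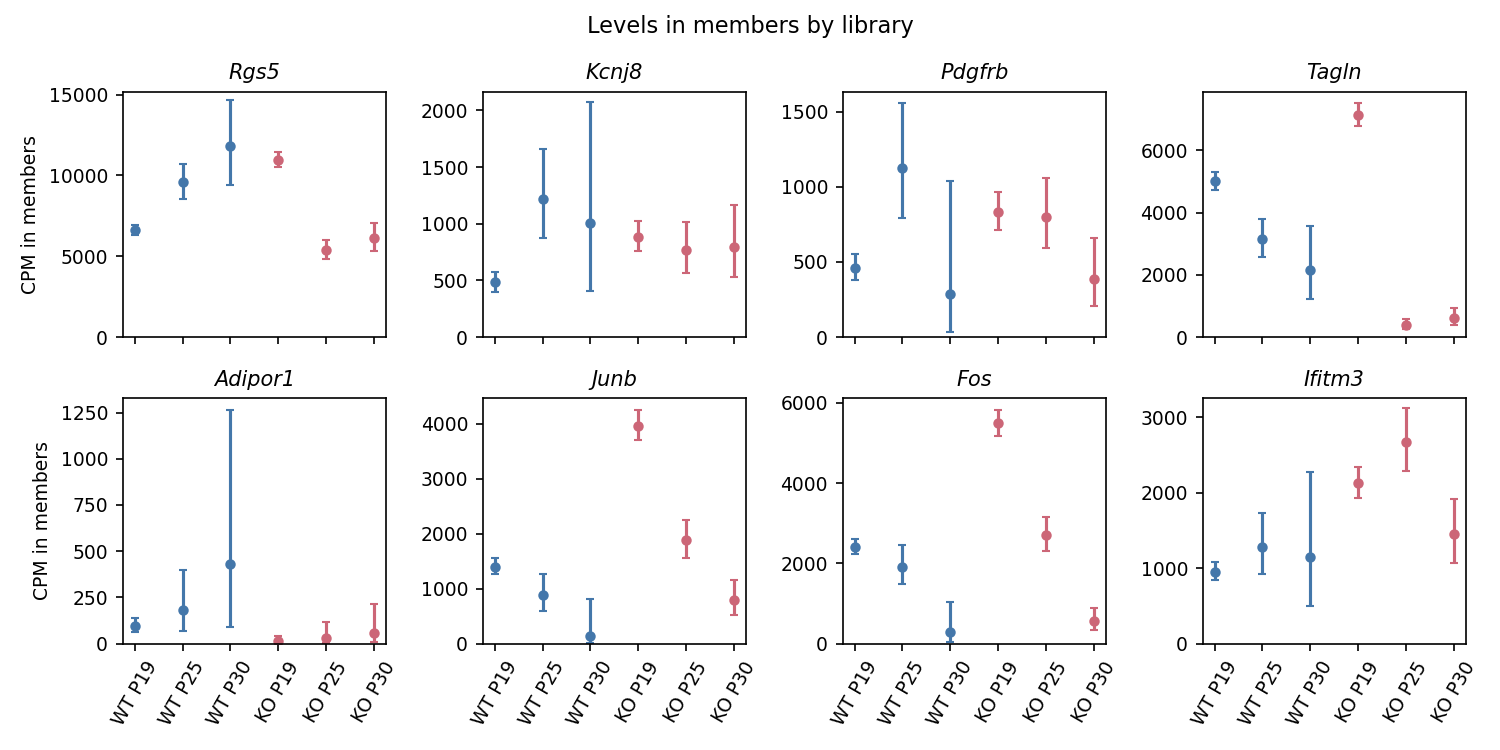
Level of 8 genes (CPM, vertical axes from 0) in the members of each library, WT in blue and KO in red, with exact 95% Poisson intervals of counting error. Adipor1 was lower in KO at each age, Junb, Fos and Ifitm3 were higher, Tagln was higher at P19 and lower at P25 and P30, and no gene passed the test across genes.

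Bulk RNA-Seq gave a measure that the rule did not use, with 4 libraries per group. In bulk tissue, fewer cells of a type and less RNA per cell cannot be told apart, and few of the genes are made by mural cells alone. A gene was called at an adjusted p below 0.05 (edgeR's quasi-likelihood test, Benjamini-Hochberg over all genes) and at least 1.5-fold; in the retina 7% of genes rose and 3.04% fell in KO, and in the RPE 2.02% rose and 2.95% fell. In the retina the change is relative to TMM scaling, without which the median of all genes would lie at 0.11 on the log2 scale (RPE -0.01). A single fit of both tissues, which shares 1 estimate of the spread, ended the retina calls of S1pr3, Cd248, Ifitm1, Myocd, Tpm2, Mylk, Angpt2, Angpt4 and Adra2a (edgeR adjusted p between 0.0538 and 0.222) and the RPE call of Col18a1 (0.0681).

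None of the 8 gate genes was called in the retina. Rgs5 stood at 80.7, 78.8, 77.1 and 77.5 CPM in the WT and 84.7, 72.6, 71.1 and 70.7 CPM in the KO libraries, which overlapped (log2 difference -0.07 ± 0.06, adjusted p = 0.386 in edgeR; 0.04 without TMM). Pdgfrb stood at 19.0 ± 2.60 (SD, n = 4) in WT and 22.1 ± 0.955 CPM (SD, n = 4) in KO (0.21 ± 0.09, edgeR adjusted p = 0.0750). Abcc9 had a small difference without overlap, with 9.80, 10.8, 10.9 and 10.4 CPM in WT and 12.4, 13.3, 12.4 and 13.3 CPM in KO (0.30 ± 0.07, edgeR adjusted p = 0.00470), below the fold threshold. So was the difference of Myl9, without overlap (0.24 ± 0.08, edgeR adjusted p = 0.0359). Kcnj8, Cspg4, Acta2 and Higd1b had differences between -0.17 and 0.37 with adjusted p of 0.169 or more. The excluded genes Cldn5 and Pecam1 overlapped between genotypes as well (0.11 ± 0.09 and -0.14 ± 0.09).

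In the RPE 1 of 7 gate genes tested was called. Kcnj8 stood at 13.1, 8.17, 12.0 and 12.2 CPM in WT and between 17.3 and 18.9 CPM in the 4 KO libraries, without overlap (0.67 ± 0.15, edgeR adjusted p = 0.0336), and the call was lost in 7 of the 8 fits without 1 library, all but that without WT replicate 1. In the retina it was 0.03 ± 0.12, and the difference between tissues passed (interaction 0.66, edgeR adjusted p = 0.0340; 8.84% of all genes passed this test). Rgs5 was 0.28 ± 0.11 in the RPE (edgeR adjusted p = 0.184), Pdgfrb 0.02 ± 0.08, and Cspg4 -0.29 ± 0.07 (edgeR adjusted p = 0.0376), under the fold threshold. Microglia genes rose in both tissues, 11 of 11 in the retina and 9 of 11 in the RPE, and 11 of 14 rod genes fell in the retina; their part in the mural values was not tested.

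Of the further pericyte genes, 4 of 22 rose in the retina and 0 fell (5 with a replicate block, which added Anpep at 1.19, adjusted p = 0.0304), with a median of 0.06 against 0.00 for all genes, and none of 23 was called in the RPE, where Anpep and Ifitm1 passed without WT replicate 1. Mcam, the adhesion molecule CD146, rose from 7.18, 7.83, 7.46 and 5.99 CPM in WT to 14.6, 13.4, 14.3 and 15.4 CPM in KO (1.02 ± 0.09, edgeR adjusted p = 1.52e-06). The sphingosine-1-phosphate receptor S1pr3 rose by 0.87 ± 0.13 and Cd248 by 0.97 ± 0.26, both called under each fit without 1 library but not in the single fit of both tissues (adjusted p = 0.0913 and 0.114), and named after their values were seen, as were Ifitm1, Myocd and Tpm2. Ifitm1 rose 9.22-fold by the fit, but 1 library, KO replicate 2, stood at 23.8 CPM and the other 3 KO libraries between 1.32 and 1.70 CPM, against 0.493 to 1.30 CPM in WT; the difference was 0.94 on the log2 scale without KO replicate 2, and the call was lost without WT replicate 1, 3 or 4. Vtn, in contrast, was lower without overlap, with 844, 734, 786 and 778 CPM in WT and 584, 565, 582 and 560 CPM in KO (-0.46 ± 0.05, edgeR adjusted p = 1.87e-05), which is under the fold threshold; most Vtn UMIs lay outside the members, which held 8.93% of them. Cox4i2 in the RPE had -0.97 ± 0.43 (edgeR adjusted p = 0.253), whereas a fit blocked on replicate number called it at -0.91 (adjusted p = 0.0470).

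Smooth muscle genes split in the retina, with Lmod1, Myocd and Tpm2 up and Mylk down of 18, and none of 19 called in the RPE, where Crip1 passed without WT replicate 1 (0.84). Myosin light chain kinase, Mylk, fell from 170, 180, 174 and 164 CPM in WT to 116, 112, 115 and 109 CPM in KO (-0.61 ± 0.04, edgeR adjusted p = 7.97e-08), short of the fold threshold without TMM (-0.50) or without WT replicate 2 (-0.58). Lmod1 rose from 0.374 ± 0.0777 to 0.858 ± 0.121 CPM (SD, n = 4 each; 1.20 ± 0.24, edgeR adjusted p = 0.00172). The call of Myocd (0.79 ± 0.22) was lost without KO replicate 1. Tpm2 stood at 10.0 CPM in KO replicate 2 and at 2.03 to 2.69 CPM in the other KO libraries, and its call (1.37 ± 0.44) was lost without that library (0.49) or without any 1 of the WT libraries. Of 6 fibroblast genes 3 rose with KO replicate 2 and 0 without it.

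The ligands and receptors that recruit and hold mural cells moved in part. In the PDGF list 0 of 6 genes were called in either tissue; the ligand Pdgfb was 0.21 ± 0.12 in the retina (edgeR adjusted p = 0.227). Of the 5 angiopoietin genes, Angpt1, which stabilises vessels through the receptor TIE2, rose in both tissues (0.66 ± 0.17 in the retina and 1.37 ± 0.16 in the RPE, edgeR adjusted p = 0.0108 and 0.00247). Its antagonist Angpt2 fell in the retina from 4.01, 4.41, 4.11 and 5.00 CPM to 2.94, 2.76, 2.71 and 2.90 CPM (-0.63 ± 0.11), and Angpt4 fell as well (-1.18 ± 0.32). Of 10 Notch genes, Notch1 (1.33 ± 0.09) and Hey2 (0.90 ± 0.10) rose and the ligand Jag1 fell (-0.59 ± 0.06) in the retina, and none was called in the RPE. Of 12 TGF-beta genes, Tgfb1 and Tgfbr2 rose in the retina (0.83 ± 0.19 and 0.83 ± 0.08). The calls of Angpt2 and Jag1 fell below 1.5-fold without TMM, at -0.52 and -0.48. Those of Angpt1 and Angpt2 in the retina were lost without WT replicate 4 (0.57 and -0.56), and that of Jag1 without KO replicate 3 or 4 or WT replicate 1 or 4.

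The vasoactive list held the gene with the largest difference in the retina among all genes listed here. Edn2, the vasoconstrictor peptide endothelin 2, rose in the retina from 3.78, 2.79, 2.68 and 3.03 CPM to 350, 341, 335 and 380 CPM (6.83 ± 0.08, edgeR adjusted p = 8.76e-15) and in the RPE from between 0.326 and 1.43 CPM to between 5.96 and 46.7 CPM (5.28 ± 0.85, edgeR adjusted p = 0.010, and 0.0787 with limma-voom, which ends the call). In the members Edn2 was counted 4 times, in 3 KO cells, whereas its receptor gene Ednra was detected in 58 of the 124 members. Of 26 vasoactive genes 3 rose (Edn2, Ano1 and Rock2) and 2 fell (Adra2a and Edn3) in the retina, and 4 of 27 rose in the RPE (Adra1a, Edn2, Rock2 and Kcnj8); Rock2 in the retina fell below 1.5-fold without KO replicate 3 or WT replicate 1 (0.57 each). Adra1a, an adrenergic receptor with 0 UMIs in the members, rose in the RPE from 0.850 ± 0.402 to 14.4 ± 1.66 CPM (SD, n = 4 each).

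Basement membrane genes rose in the retina, 6 of 16 with a median of 0.38, and 1 fell in the RPE. Agrn, agrin, rose from 134 ± 7.91 to 453 ± 28.9 CPM (SD, n = 4 each; 1.76 ± 0.06) and Col4a1 from 43.5 ± 3.14 to 92.9 ± 6.43 CPM (1.10 ± 0.06), with no overlap; the others were Hspg2, lost without KO replicate 4, and Lama5, Lamb2 and Sparc. In members Col4a1 had a KO minus WT difference of -0.54 ± 0.43 (limma adjusted p = 0.901), and of 0.10 ± 0.29 in the 111, in which it stood at 2156, 3125 and 721 CPM in WT and 2583, 5060 and 472 CPM in KO. Of the basement membrane genes 6 of 14 lay above 0 in all members (median -0.13) and 9 of 12 in the 111 (median 0.24). In the RPE Col18a1 fell (-0.72 ± 0.15, edgeR adjusted p = 0.0310), a call lost in 4 of the 8 fits without 1 library. Inflammatory genes rose in 17 of 19 cases in the retina and in 5 of 19 in the RPE (8 without WT replicate 1; H2-D1, H2-K1 and Timp1 also passed with DESeq2), with Stat3 at 69.8 ± 4.42 in WT and 267 ± 19.4 CPM in KO retina (SD, n = 4 each; 1.93 ± 0.06). Adipor1 fell in both tissues, by 2.11 in the retina and by 1.49 in the RPE on the log2 scale. Cdh13 rose in the retina (0.88 ± 0.08); in the RPE it was 0.78 ± 0.24 (edgeR adjusted p = 0.111), and 0.83 with adjusted p = 0.0429 when the replicate number was a block.

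**Figure D5:**
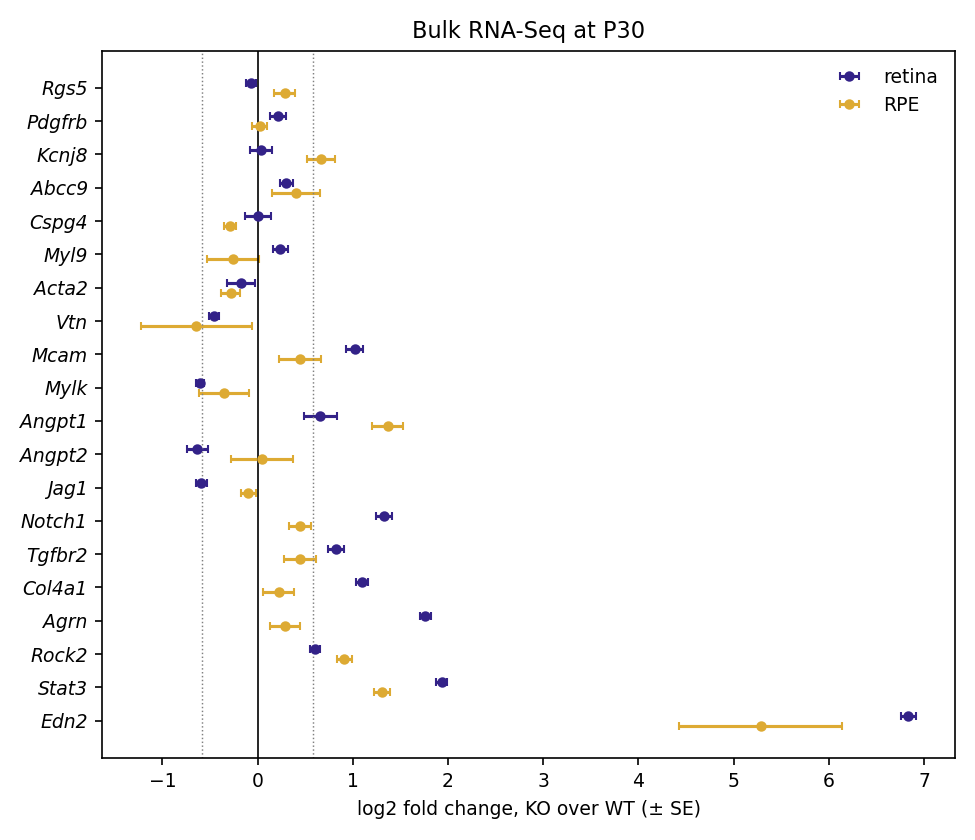
Log2 fold change of KO over WT (horizontal axis, bars are SE) at P30 for 20 genes in bulk retina (blue) and RPE (yellow), from 4 libraries per group; dotted lines mark 1.5-fold. The gate genes at the top, which do not include Higd1b, lay within 1.5-fold apart from Kcnj8 in the RPE (0.67). Edn2 at the bottom reached 6.83 in the retina.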

How the data were processed

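The scRNA-Seq matrix deposited by the authors holds natural log values of counts scaled to 10000 per cell; per the submitters' processing notes, Cell Ranger 2.1 and Seurat 3.2.2 were among the tools and the build was mm10. After the inverse steps, 100% of 46532493 values were whole to within 0.01, and these UMI counts were used. The bulk tables deposited by the authors hold raw read counts per gene, for which the sources used here name no aligner.

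UMIs of the members were summed per library, genes with at least 40 UMIs were kept, and log2 CPM with a prior count of 2 was fitted with limma-trend 3.58.1 in R 4.3.3, with age as a covariate for KO against WT and with library as a block against other or endothelial cells. Bulk counts were fitted with edgeR 4.0.16 (TMM, default filter on low counts); depth is given in the report. edgeR, voom and DESeq2 1.42.0 served as alternatives, and scripts were tested on simulated data. Values ± are SE for fits and SD for levels. Same-numbered bulk WT and KO libraries deviated together (correlation 0.157 to 0.218 in the retina and 0.287 to 0.655 in the RPE), a pairing that comes from the data and not from the labels. The members and gene lists were chosen with earlier results of these data known. Named genes are the gate genes, Cldn5 and Pecam1; the 10 genes with the highest ratio to the other cells and the 5 highest and 5 lowest to endothelial cells; the 10 genes up and 10 down in KO members with the smallest p; the 3 genes of each list with the smallest p in bulk or the most UMIs in members; and Adipor1, Adipor2 and Cdh13. Some genes that this rule names are not reported here.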

Additional observations from a re-analysis of the deposited data

Results flagged for a closer look

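In bulk, 184 groups of 4 libraries were examined for a library far from the other 3, over the named genes and both tissues, and 11 were found, close to the 9.2 that chance gives at 1 in 20 groups. In the KO retina, replicate 2 stood apart for Ifitm1 (23.8 CPM against 1.32 to 1.70), Tpm2 (10.0 against 2.03 to 2.69), Pdgfra (23.5 against 21.2 to 21.6) and Pecam1 (12.6 against 11.4 to 11.6), and replicate 1 for Rgs5 (84.7 against 70.7 to 72.6) and Myocd (1.43 against 0.967 to 1.02). In the WT retina, replicate 2 stood apart for Cd248 (1.45 against 0.678 to 0.705) and S1pr3 (38.1 against 22.8 to 24.8). In the RPE, KO replicate 3 was low for Myl9 (13.5 against 18.7 to 19.4), KO replicate 1 high for Nid2 (245 against 204 to 207), and WT replicate 2 low for Pdgfd (12.6 against 19.1 to 19.6).

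For 19 of 70 named genes, some of them chosen for a small p in these libraries, the log2 difference between KO and WT was not the same in both tissues by the interaction of genotype and tissue in edgeR at an adjusted p below 0.05, which 8.84% of all 21068 genes passed. Given as RPE minus retina, it was positive for Adra1a (3.65), Edn3 (1.11), Kcnj8 (0.66), Adipor1 (0.64), Tgfb3 (0.60), Jag1 (0.51) and Cers4 (0.41). It was negative for Higd1b (-2.65, not tested in the RPE alone for low counts), Icam1 (-1.72), Agrn (-1.45), Lmod1 (-1.30), Col18a1 (-1.24), Notch1 (-0.86), Col4a1 (-0.85), Notch2 (-0.71), Osmr (-0.66), Stat3 (-0.61), Gjc1 (-0.46) and Cers5 (-0.42). Mural cells are a small part of both tissues, and how much of each difference lies in them was not tested.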

How the results depend on the processing

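The difference in the share of members reversed with Cldn5 or Pecam1 cells kept (-0.0156 points) and ranged from -0.102 to 0.305 points without single libraries. Calls between KO and WT members numbered 9 with edgeR and from 0 to 53 without single libraries, the latter with 1 residual degree of freedom. For the comparisons with other and endothelial cells, counts are of genes past an adjusted p below 0.05 and 2-fold. The cells were chosen on markers, so these counts describe that choice and are not a test. Against other cells, the count was 411 of 2733 genes in limma and 946 with edgeR. It was 665 with Cldn5 or Pecam1 cells kept and from 253 (without KO P19) to 739 (without WT P30) without single libraries. Against endothelial cells, it was 807 of 6350 genes in limma, 1318 with edgeR and from 499 (without WT P19) to 1085 without single libraries. In the bulk RPE, 944 genes passed, 1441 with DESeq2, 1571 with both tissues in a single fit, and from 563 (without KO replicate 4; 588 without KO replicate 2) to 1677 (without WT replicate 1) without single libraries.

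With a replicate block, 1979 genes passed in the retina, 934 in the RPE and 1764 for the difference between tissues; beside Cox4i2 and Cdh13 in the RPE and Anpep in the retina it changed no call of the genes listed. Cspg4 in the retina lay at 0 and reversed with DESeq2 (-0.0028), its size factors (-0.0019), no filter (-0.00075), a single fit (-0.00055) and without single libraries (-0.084 to 0.055). Rgs5 in the retina reversed without TMM (0.041), and Gngt1 in members without rod-rich or Müller-rich cells (-0.0634), an alternative chosen after seeing the data. Gngt1 is itself in the rod list that defined the cells left out. Without single libraries, Kcnj8 in the retina ranged from -0.018 to 0.10, and in the RPE Cldn5 from -0.12 to 0.29, Pdgfrb from -0.025 to 0.090 and Tie1 from -0.055 to 0.29. The causes were not tested. Members at P30 sum to at most 33793 UMIs in a library, where a gene at 30 CPM is about 1 UMI.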
